A study of Arabidopsis thaliana with 3 samples.

Results

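Shared peaks deep inside genes are places where chromatin carrying tagged AtDEK2 was enriched in both immunoprecipitates and where the summit of replicate 1 lay well away from any gene end. A peak of replicate 1 was taken as shared when it overlapped a peak of replicate 2 by at least 50% of the shorter of the pair, and as deep when its summit lay inside a protein-coding gene and more than 500 bp from both ends of every protein-coding gene. This left 539 peaks, which is 4.99% of the 10812 shared peaks (95% exact binomial interval 4.58 to 5.41, which covers counting error only) among 25742 peaks of replicate 1, of which 42.0% were shared. The 539 peaks lay in 516 host genes, and each was matched to a different peak of replicate 2, whose own summit was deep as well in 464 of them.

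The chromatin came from 14-day-old Arabidopsis thaliana seedlings grown on plates, all of the genotype dek2-1 with the transgene pDEK2::DEK2-YFP, so the tagged protein stood in a mutant background and was driven by its own promoter; how many transgenic lines were used is not stated in the labels. The tag was pulled down with an anti-GFP antibody in 2 immunoprecipitates, called replicates 1 and 2, and 1 input without antibody has no values here. The labels do not say whether the replicates were grown apart, so their spread may be technical. The wild-type and dek2-1 plants with mock or Pst DC3000 hrcC- treatment that the design text mentions were not analysed here, and no plants without the tag were analysed, so enrichment is always over the background modelled by the peak caller.

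DEK proteins are abundant chromatin proteins that bind DNA and histones and help to set how tightly chromatin is packed, and the title of the series describes AtDEK2 as a reader of histone marks with a part in immunity. Inside a transcribed plant gene the chromatin is not uniform. Marks of transcription initiation gather near the start, whereas gene-body DNA methylation lies over the interior, away from both ends. Which genes carried AtDEK2-YFP in that interior, and how well the immunoprecipitates agreed there, is what the following values describe.

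The interior of genes was sparsely marked. It made up 59.2% of the length of all protein-coding genes (38.2 Mb) but held 14.1 shared summits per Mb, against 149 per Mb in the 26.3 Mb of gene sequence within 500 bp of an end, where 3919 shared summits (36.2% of all shared peaks) lay. Another 3930 shared summits (36.3%) fell outside genes but within 500 bp of an end, and 2424 (22.4%) farther out. Each chromosome had some members, with 16.0, 11.8, 14.5, 11.8 and 14.6 deep shared summits per Mb of gene interior on chromosomes 1 to 5. The surroundings of members held about as many genes as those of all shared peaks, with medians of 26 and 27 protein-coding genes in the 100 kb window.

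The host with the best peak, by the worse of its ranks of fold enrichment in the lists, was AT3G14870. Fold enrichment is the authors' ratio of the pileup of fragments at a summit to the modelled background, given for each peak. At AT3G14870 (chr3:5002756-5004178, TAIR10) it was 3.23 in replicate 1 and 3.28 in replicate 2, with the summits 30 bp apart and 1383 bp from the nearer end of a gene of 3607 bp. AT1G78410 came next, with 3.71 in replicate 1 and 3.04 in replicate 2. These were the 2 members with a fold enrichment over 3 in both lists, while 10 members passed 3 in replicate 1 and 17 in replicate 2.

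NRT1.1, the nitrate transporter that also senses nitrate, carried a pair of deep shared peaks. The stronger one (chr1:4107547-4108280) reached 3.02 in replicate 1 and 2.72 in replicate 2, with summits 20 bp apart. Its neighbour (chr1:4106783-4107432) had 2.41 in replicate 1 and 2.38 in replicate 2. They lay 1614 and 1780 bp from the nearer end, so the middle of NRT1.1 was marked in both immunoprecipitates. By fold enrichment the stronger peak ranked 353 among 25742 peaks in replicate 1, and its match 525 among 13307 in replicate 2. HA3, a plasma membrane proton pump, had 3.17 in replicate 1 and 2.64 in replicate 2 (chr5:23235180-23235926), 1013 bp from its nearer end. AT4G23820 had 2.92 and 2.76 in replicates 1 and 2, and AT2G21920 had 2.79 and 2.68, each with less than 30 bp between the summits.

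MYC2, TCH4 and SZF1 were also among the 10 best-ranked hosts. MYC2, the basic helix-loop-helix factor at the head of the jasmonate response, was enriched 2.99-fold in replicate 1 and 2.66-fold in replicate 2 (chr1:11798284-11799413), with a summit 538 bp from its nearer end that also lay inside the overlapping gene AT1G32630. TCH4, a touch-induced xyloglucan endotransglucosylase of the cell wall, had 2.91 in replicate 1 and 2.75 in replicate 2 (chr5:23306502-23308516). SZF1, a stress-induced CCCH zinc finger protein, had 2.81 in replicate 1 and 2.76 in replicate 2 (chr3:20775777-20779412). In TCH4 and SZF1 the peaks overlapped, but their summits were 868 and 1013 bp apart and the matching replicate 2 summit was not deep. At TCH4 it lay 209 bp inside the gene from the end with the lower coordinate, and the replicate 2 peak was 737 bp wide, against 2015 bp in replicate 1. At SZF1 the summit behind the 2.76 lay outside the gene, and the replicate 2 peak was 786 bp wide, against 3636 bp in replicate 1. A weaker replicate 2 peak, with a fold enrichment of 1.69, had its summit deep inside SZF1.

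**Figure D1:**
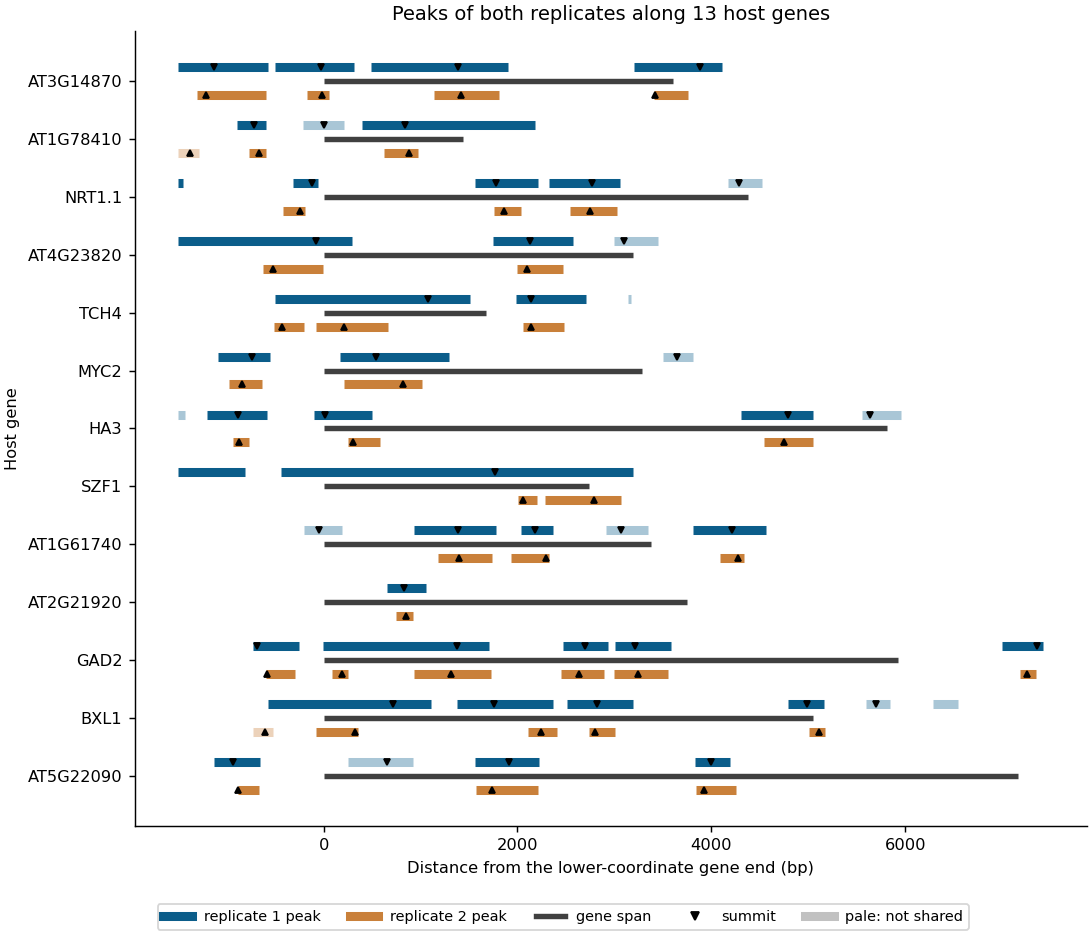
Peaks of both replicates drawn along 13 host genes, those of the 10 best-ranked deep peaks and the hosts with the most deep peaks; the x axis is the distance in bp from the end with the lower coordinate, since the gene table gives no strand. Bars above a gene are replicate 1 peaks, bars below it replicate 2 peaks, triangles are summits, pale bars are peaks without a match, and bars are clipped 1500 bp outside the gene. AT2G21920 holds a single narrow peak in each list, whereas one replicate 1 peak covers the whole of SZF1.

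Most members were of moderate strength. The median fold enrichment of deep shared peaks was 1.89 in replicate 1 (quartiles 1.64 and 2.23), against 2.01 for shared peaks inside genes by an end and 2.08 for all shared peaks. In replicate 2 it was 2.08 for deep peaks (quartiles 1.90 and 2.34), against 2.01 by gene ends and 2.03 for all shared peaks. Deep peaks were therefore below the other classes in one list and level with or above them in the other. The matching peak had the higher fold enrichment in replicate 2 in 343 of 539 members (63.6%, 59.4 to 67.7), against 46.5% of all shared peaks (45.6 to 47.5). Among the 464 members whose replicate 2 summit was deep too, 298 (64.2%) had the higher value in replicate 2.

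The ranks went the same way. Among the members, 68 (12.6%) were in the best 10% of replicate 1, against 21.4% of all shared peaks, and 84 (15.6%) were in the best 10% of replicate 2, against 11.7%. A fold enrichment of at least 2 in both lists was reached by 147 members (27.3%, 23.6 to 31.2), by 31.6% of shared peaks by gene ends (30.2 to 33.1) and by 36.3% of all shared peaks (35.3 to 37.2). The Spearman correlation of fold enrichment between the lists was 0.21 over the 539 members, against 0.32 over the 3919 peaks by gene ends and 0.34 over all shared peaks, a description across peaks that are not independent.

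Single members differed in both directions. HSPRO2, known from basal resistance to bacteria, had the highest replicate 1 value of all peaks in that list, 4.17, while its match in replicate 2, with 2.41, had its summit 905 bp away and outside the gene. EMB506, an ankyrin-repeat protein of the plastid needed for embryo development, had 2.33 in replicate 1 and 4.16 in replicate 2, the highest replicate 2 value of any member, at a summit 48 bp away that lay within 500 bp of an end. AT5G45780 had 1.93 in replicate 1 and 3.89 in replicate 2. One of the pair of deep peaks in ABCB19, an auxin efflux carrier, had 1.31 in replicate 1 and 3.15 in replicate 2, while the other had 2.28 and 2.20. HSPRO2, EMB506, AT5G45780 and ABCB19 were chosen after their values were seen.

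**Figure D2:**
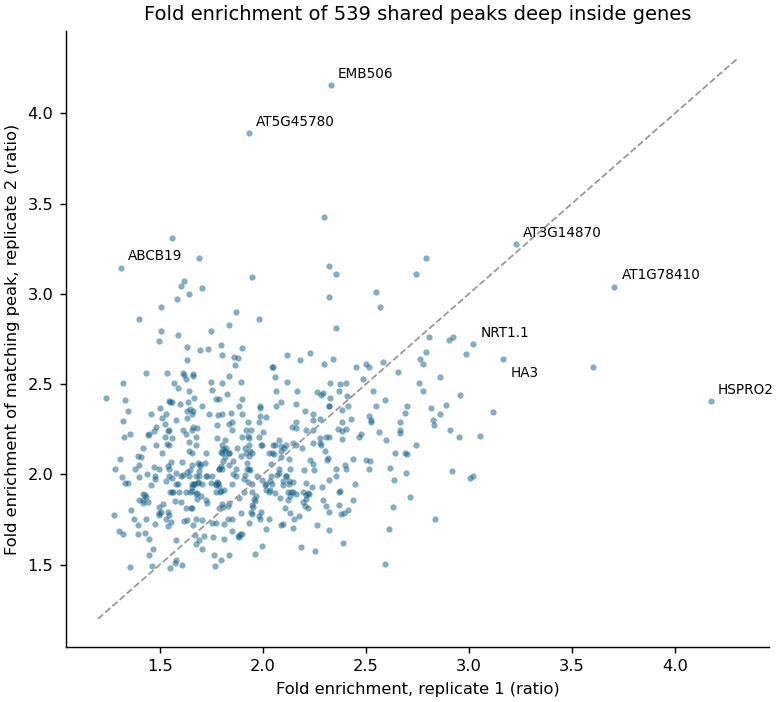
Fold enrichment of the 539 deep shared peaks, replicate 1 on the x axis and the matching replicate 2 peak on the y axis, both as the authors' ratio; each point is a peak and the dashed line marks equal values. Of the points, 343 lie above the line, and the few beyond 3 on one axis mostly lie near the bulk on the other, apart from AT3G14870 and AT1G78410.

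A pileup and a background were solved for each peak from its deposited values: pileup is the height at the summit and background the height modelled there. Pileups were whole numbers in 100% of replicate 2 peaks but in only 14.8% of replicate 1 peaks. The replicate 1 values can therefore not be read as counts of fragments, and the scales of the lists may differ. The median pileup at deep summits was 126 in replicate 1, against 141 by gene ends, and 54.0 in replicate 2, against 56.0. The median background was 62.0 for deep peaks in replicate 1, against 67.0 by gene ends, and 25.1 in replicate 2, against 26.6. By the medians, deep peaks thus had a lower pileup and a lower background than peaks by gene ends in both lists. The replicate 2 pileups differed little: for deep peaks and peaks by gene ends the means were 58.7 and 58.8 and the upper quartiles 64.0 and 63.0. The commonest background was 54.1 in replicate 1 and 22.1 in replicate 2. In replicate 1 the background lay over 1% above it at 73.1% of deep peaks and 84.8% of peaks by gene ends. In replicate 2 it did so at 72.5% and 84.9%. These replicate 2 shares are over the 592 and 4037 shared peaks placed by their own replicate 2 summit, not over the matches used for the medians. The part of this in the fold enrichment was not tested.

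Host genes were longer than other genes with room for such a peak. Of 22782 protein-coding genes long enough to hold a deep summit, 516 (2.26%, 2.08 to 2.47) did. The median length of hosts was 3142.5 bp (quartiles 2365.5 and 4066 bp), against 2332 bp for eligible genes without a deep shared peak. The shortest host had 1107 bp and the longest, MOS14, 9914 bp. MOS14, which carries splicing proteins into the nucleus, had a deep replicate 1 summit 529 bp from one end, enriched 1.81-fold, and a match enriched 2.14-fold in replicate 2 whose summit was not deep.

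A longer gene offers more interior, and measured per interior base pair the order changed. The share of genes that were hosts was 0.814% up to 2 kb (68 of 8355), 2.22% from 2 to 3 kb, 3.94% from 3 to 4 kb, 4.73% from 4 to 6 kb (112 of 2368) and 3.03% from 6 to 10 kb (23 of 758). Among the 122 genes over 10 kb none was a host, which allows a share of up to 2.98% (upper bound of the exact interval). Per Mb of interior there were 16.0, 15.9, 17.4, 14.6 and 6.03 deep shared summits in these bins up to 10 kb and none above. The density was thus close to level up to 6 kb and lower in the longest genes.

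**Figure D3:**
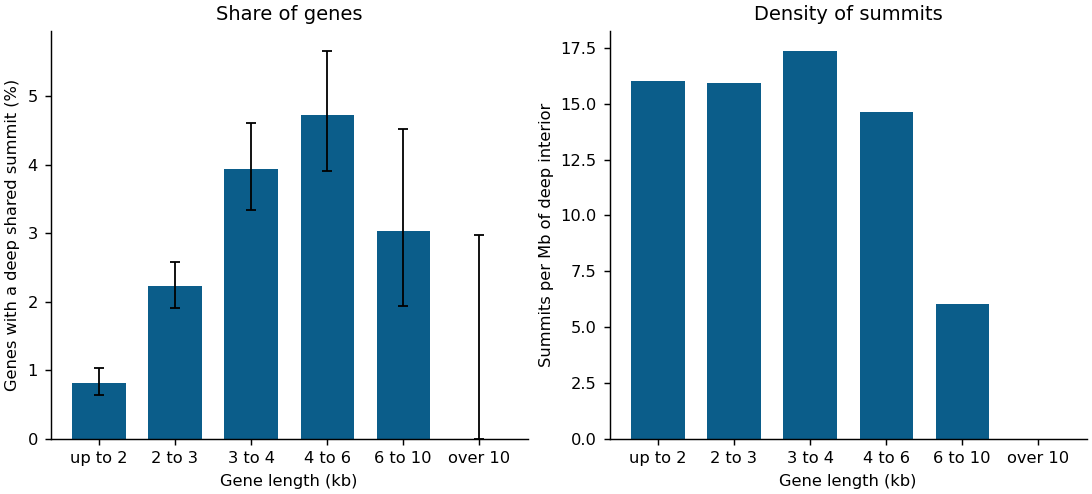
Left, the share in % of eligible protein-coding genes that hold a deep shared summit, by gene length in kb, with 95% exact binomial intervals. Right, deep shared summits per Mb of gene interior in the same bins; the left bars reach 4.73% at 4 to 6 kb, while the right bars stay between 14.6 and 17.4 per Mb up to 6 kb and reach 6.03 per Mb at 6 to 10 kb.

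The same held for distance. Members lay a median of 937 bp from the nearest gene end (504 to 3272 bp). There were 18.1 shared summits per Mb at 500 to 750 bp from the nearest end (188 members), 13.1 at 750 to 1000 bp, 16.0 at 1000 to 1500 bp, 13.5 at 1500 to 2000 bp and 5.30 at 2000 to 4000 bp (23 members). The farthest one was in PHOT1, the blue-light receptor kinase phototropin, 3272 bp from its nearer end (chr3:16819722-16820410), and was enriched 2.48-fold in replicate 1 and 2.23-fold in replicate 2. AT5G22090 and AT1G66880 followed, each at 3168 bp, then GAD2 at 2694 bp and HEXO3 at 2577 bp. AT1G66880, at 8767 bp the second longest host, had 2.70 in replicate 1 and 2.01 in replicate 2.

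The members nearest to the limit of 500 bp are given for description. Just inside it lay the summits of ZIFL2, at 504 bp, and of AT1G72620 and PIP5K2, each at 505 bp, with fold enrichments from 1.99 to 2.29 in replicate 1 and from 1.86 to 2.44 in replicate 2, whose summits in AT1G72620 and PIP5K2 were not deep. Just outside lay those of RABG3E, at 500 bp, and of KCS12 and EDF3, each at 499 bp, with 1.45 to 1.84 in replicate 1 and 1.90 to 2.05 in replicate 2. These distances rest on a gene table of a related assembly version and are exact only as far as both versions share coordinates.

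Along the host, deep summits were spread much as the interior itself. The central stretch from 40 to 60% of gene length held 160 summits (29.7%, 25.9 to 33.7), and 28.6% of the interior of the host genes lay there. The 50% of gene length towards the lower coordinate held 253 summits (46.9%, 42.7 to 51.3). Strand is not given, so this side cannot be named as upstream or downstream. Neither the centre of the gene nor one side of it stood apart from the share of interior it holds.

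**Figure D4:**
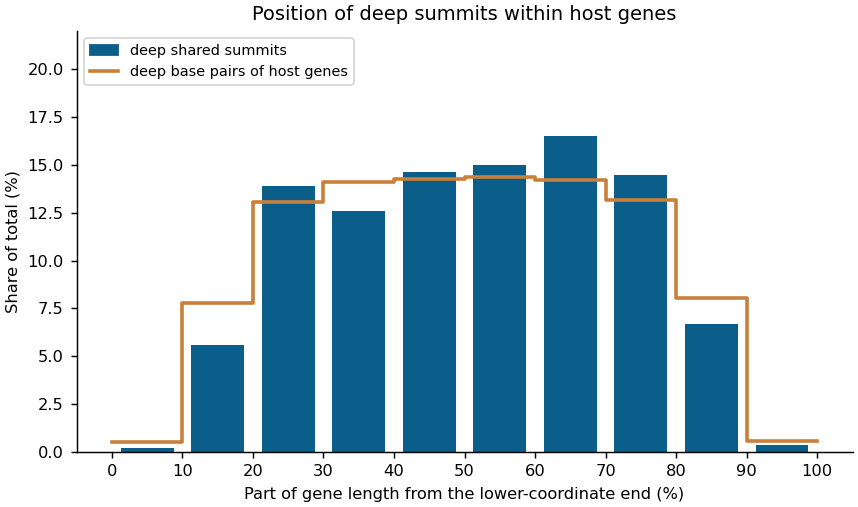
Share in % of the 539 deep shared summits (bars) and of the interior base pairs of the 516 host genes (line) in each 10% of gene length, counted from the end with the lower coordinate. The bars follow the line, with the highest bar, 16.5%, between 60 and 70%.

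Deep peaks were as wide as those by gene ends. The median width was 578 bp for deep peaks in replicate 1 (quartiles 401.5 and 869 bp), against 572 bp by gene ends, and 276 bp in replicate 2, against 271 bp. The replicate 1 peak was the wider one in 488 of 539 members (90.5%), with a median ratio of 1.98. A deep peak covered a median of 18.1% of its host's length in replicate 1 and 9.14% in replicate 2. The modelled background was also higher in replicate 1, on a scale that may differ, and its part in the widths was not tested.

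In replicate 1 some members were broad enough to leave the interior. A total of 338 members (62.7%) lay wholly more than 500 bp from any gene end in replicate 1 and 389 (72.2%) did so in replicate 2. A host's end was crossed by 63 members in replicate 1 (11.7%) and by 32 in replicate 2 (5.94%). Both ends were crossed by 8 members in replicate 1, among them SZF1 and PUP18, and by none in replicate 2. The widest was in ACA1, a calcium pump, where the replicate 1 peak spanned 5143 bp (chr1:9671124-9676266) and the matching replicate 2 peak 464 bp, with summits 2623 bp apart and that of replicate 2 outside the gene. After it came AT1G61890 with 4350 bp, SZF1 with 3636 bp, PUP18, of the purine permease family, with 2843 bp and AT1G56660 with 2827 bp.

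Summits of the lists lay close together in most members, though the overlap required of members favours a small gap and a match in the same host. The median gap was 78 bp for deep peaks, against 73 bp by gene ends and 69 bp for all shared peaks, and 325 members (60.3%, 56.0 to 64.5) had a gap of at most 100 bp, against 61.4% by gene ends. The smallest gaps were 1 bp, in the amino acid transporter family gene UMAMIT41 and in the second deep peak of PHOT1, and 2 bp in AT4G30970. After ACA1, the largest were 1790 bp in AT2G25460, where the replicate 2 summit lay outside the gene, and 1683 bp in AT1G56660. The matching replicate 2 summit was itself deep in 464 members (86.1%, 82.9 to 88.9) and lay in the same host in 525 (97.4%). Of the 3919 shared peaks by gene ends, 74.6% had a match whose summit was again inside a gene by an end. In 65 deep members the matching summit lay inside a gene by an end, in 9 outside genes but near one and in 1 farther out.

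How often a deep peak was found again depended on the list it was taken from. Of all 1613 replicate 1 peaks with a deep summit, 33.4% (31.1 to 35.8) had a match in replicate 2, against 38.1% (37.2 to 39.1) of those by gene ends. The 1074 without a match had a median fold enrichment of 1.62. Within bins of equal fold enrichment the classes came out alike, with 16.4% of deep peaks and 14.0% of peaks by gene ends found again in the lowest bin, and 66.9% and 70.7% in the highest.

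Taken from replicate 2 the picture was another one. Of its 829 peaks with a deep summit, 592 (71.4%, 68.2 to 74.5) had a match in replicate 1, against 92.2% (91.4 to 93.0) by gene ends and 88.9% of all replicate 2 peaks. The gap was there in every bin of fold enrichment. In the lowest bin 67.5% of deep peaks were found again, against 89.3% by gene ends, in the second 57.2% against 89.5%, in the third 63.0% against 92.4%, in the fourth 79.9% against 93.6%, and in the highest 89.2% against 98.3%. The 95% exact intervals of the classes did not overlap in any of the 5 bins. Any replicate 1 peak with enough overlap counted as a match, and such peaks were denser by gene ends. Replicate 1 had 10277 summits in the 26.3 Mb by gene ends and 1613 in the 38.2 Mb of interior. Bins of fold enrichment do not adjust for this density, and its part in the gap was not tested. The 237 deep replicate 2 peaks without a match had a median fold enrichment of 1.95 and a median width of 207 bp, and 26 of them overlapped a replicate 1 peak at all.

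**Figure D5:**
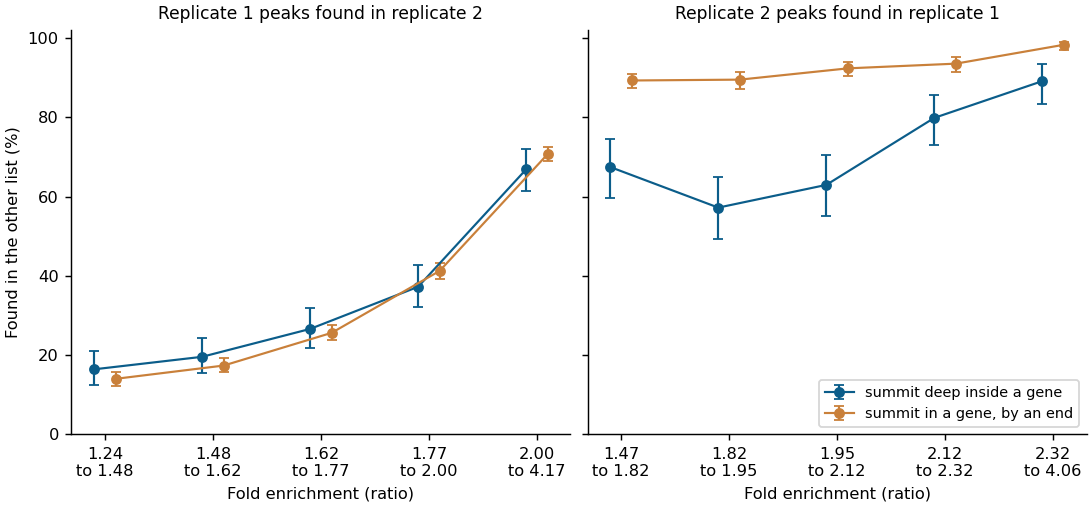
Share in % of peaks with a match in the other list, by bins of fold enrichment that each hold close to equal numbers of deep peaks, for summits deep inside genes and summits inside genes by an end, with 95% exact binomial intervals. On the left (replicate 1 peaks) the classes run together from 16.4% and 14.0% to 66.9% and 70.7%; on the right (replicate 2 peaks) deep peaks lie below peaks by gene ends in all 5 bins.

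Counted by gene, 1408 eligible genes (6.18%) held a deep summit in replicate 1 and 757 (3.32%) in replicate 2. The 497 genes with one in both lists were 35.3% of the replicate 1 genes and 65.7% of the replicate 2 genes.

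Some hosts were marked at an end as well. Of the 516 hosts, 218 (42.2%, 37.9 to 46.6) also held a shared summit inside the gene or outside it within 500 bp of an end, against 36.1% (35.5 to 36.7) of eligible genes without a deep peak and 36.2% of all eligible genes. The order was not the same at every length: up to 2 kb it was 38.2% of hosts and 30.4% of the others, from 2 to 3 kb 34.5% and 38.9%, from 3 to 4 kb 48.0% and 40.0%, from 4 to 6 kb 49.1% and 40.3%, and from 6 to 10 kb 39.1% and 39.7%. Both ends were marked in 32 hosts (6.20%, 4.28 to 8.64), against 5.69% of the others. The remaining hosts, with 310 members (57.5%), had no shared summit by an end, but many had an unshared one. With the summits of either list counted, shared or not, 424 hosts (82.2%) had one within 500 bp of an end. The share was 72.2% of eligible genes without a deep shared peak and 72.4% of all eligible genes. Hosts with none held 97 members (18.0%). The replicate 2 match of a member can itself be such a summit: it lay inside a gene by an end in 65 members and outside genes near one in 9. Hosts can thus be counted through the match of their own deep peak, and how many were is not given. Within the 218 hosts with both kinds, the best deep peak was above the best end peak in 82 (37.6%) by replicate 1 and in 106 (48.6%) by replicate 2, with medians of 1.95 for the deep and 2.10 for the end peak in replicate 1 and 2.12 and 2.10 in replicate 2. In 50 hosts the deep peak was the higher one in both lists and in 80 it was the lower one in both. The deep value of replicate 2 is that of the matching peak, whose own summit need not be deep. At TCH4 the 2.75 set against an end peak of 2.12 came from a summit 209 bp inside the gene. At AT5G46680 the deep and the end value of replicate 2 were both 3.09. The replicate 2 counts and medians thus do not compare deep with end summits in every host.

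A single deep shared peak, by the replicate 1 summit, was the rule, with 491 hosts holding 1, 23 hosts 2, and 2 hosts 3. The hosts with 3 were GAD2, a glutamate decarboxylase that makes the signalling amino acid GABA, and BXL1, a xylosidase that trims cell wall polymers. In GAD2 the fold enrichments along the gene were 2.10, 1.63 and 2.08 in replicate 1 and 2.15, 2.63 and 2.03 in replicate 2, so the central peak was the lowest in one list and the highest in the other. BXL1 had 1.36, 1.60 and 2.11 in replicate 1 and 1.80, 1.99 and 1.99 in replicate 2, where the summit of the first lay 321 bp from the gene's end and so was not deep. Among hosts with 2, AT5G22090 had 2.86 and 2.32 in replicate 1 and 2.54 and 2.98 in replicate 2, and AT1G61740 had 2.79 and 1.67 in replicate 1 and 3.20 and 1.99 in replicate 2. DMR6, which lowers salicylic acid levels by hydroxylating it, had 1.92 and 1.84 in replicate 1 and the same value, 2.12, for both in replicate 2; it was picked after its values were seen. Neighbouring deep summits of one host lay a median of 1036 bp apart (443 to 2862 bp, 27 pairs).

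Few members coincided with a further annotated gene inside the host. The summit lay in a long non-coding RNA gene in 12 members and in a pseudogene in 1, together 2.41% (1.29 to 4.09), against 1.51% of the interior that such genes cover. The best of them were in GIL1, known for its part in hypocotyl orientation in light, where the nested gene is AT5G08880, in AT1G10120, with AT1G04773, and in AT1G47845, with AT1G47860. At GIL1 fold values were 2.82 in replicate 1 and 2.36 in replicate 2. A further 4 members lay in a pair of overlapping protein-coding genes, MYC2 being one.

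Genes of immunity and defence hormones were among the hosts. The 4 lists for pattern recognition, NLR receptors, salicylic acid, and jasmonate and ethylene held 6 hosts among 75 genes (8.0%, 2.99 to 16.6). All 9 gene lists, whose 157 members were long enough to hold a deep summit, held 7 hosts (4.46%, 1.81 to 8.97), against 2.26% of all eligible genes, and the median length of each list, 3262 to 6901 bp, was above the 2351 bp of all eligible genes. The 4 lists had medians of 3262 to 3692 bp, and 3.94% of eligible genes of 3 to 4 kb were hosts, a share inside the interval around 8.0%. All 9 lists were chosen with earlier results of these data known, and joining these 4 gathered 6 of the 7 hosts. Of 21 genes of pattern recognition and early signalling, 1 was a host, RBOHD, the oxidase of the immune oxidative burst, with 2.24 in replicate 1 and 2.33 in replicate 2 (chr5:19398198-19399838), 2073 bp from its nearer end. Of 20 NLR receptor genes, 2 were hosts. RPS6 had 2.01 in replicate 1 and 1.91 in replicate 2, and WRR4 had 1.80 and 2.08. Both encode intracellular receptors that recognise pathogens.

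Of 15 genes of salicylic acid, 2 were hosts. PAD4, the partner of EDS1 in defence signalling, had 2.29 in replicate 1 and 1.93 in replicate 2 with summits 9 bp apart (chr3:19431709-19432797), and CBP60G, a calmodulin-binding factor that switches on salicylic acid synthesis, had 2.12 and 1.86. Of 19 jasmonate and ethylene genes 1 was a host, MYC2, and of 16 light and clock genes 1, PHOT1. Some jasmonate genes outside that list were hosts too, as found after their values were seen. Their families were not counted in full, so no share is given, and JAZ1, JAZ6 and LOX2 on the list were not hosts. The JAZ repressor genes JAZ3, JAZ5 and JAZ10 had 2.06, 1.44 and 1.68 in replicate 1 and 2.16, 2.00 and 1.75 in replicate 2, and LOX4, a lipoxygenase of jasmonate synthesis, had 2.01 and 1.94. None of 23 chromatin regulators, 11 auxin genes, 17 growth and metabolism genes listed as highly expressed or 15 developmental regulators listed as Polycomb-silenced was a host. These are names of the lists, and neither expression nor Polycomb silencing was measured in the samples used here. The chromatin regulators had a median length of 6901 bp, and 11 of them held a shared summit by an end. With these list sizes a count of 0 allows a share of up to 14.8% for chromatin regulators and up to 28.5% for auxin genes (exact interval).

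Groups formed by words in gene names, chosen after the hosts had been seen and given as description, showed what other hosts are. Cell wall enzymes and proteins held 25 hosts among 289 eligible genes (8.65%), transporters and pumps 30 among 580 (5.17%) and transcription factors 26 among 597 (4.36%), against 2.62% of all eligible genes with a symbol. Genes matched by words for kinases and receptors held 12 among 633 (1.90%), and cytochromes P450 4 among 228 (1.75%). The median length was 2424 bp in the cell wall group, 2979.5 bp in the transporter group and 2926 bp in the kinase and receptor group, against 2590 bp for all with a symbol. These groups hold only what a word in the name catches: the kinase and receptor group lacks PHOT1 and includes PIP5K2, a lipid kinase, and PPDK, an enzyme of metabolism, so no difference between classes was read from them.

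Among transport hosts, the hexose carrier STP1 was enriched 2.66-fold in replicate 1 and 2.29-fold in replicate 2, the nitrate transporter NRT1:2 had 2.49 and 2.53, and the amino acid transporter LHT1 had 2.11 and 1.99. Calcium pumps were represented by ACA1, ACA4 and ACA11, with 2.19, 1.67 and 2.10 in replicate 1 and 2.15, 1.95 and 1.72 in replicate 2. In the cell wall group the mannan synthase gene ATCSLA09 had 2.37 in replicate 1 and 2.50 in replicate 2, TBL37, of a family of polysaccharide acetylation proteins, had 2.52 and 2.30, and the wall-loosening expansin EXPA6 had 2.31 and 1.82. The TBL family gave 6 of the 25 hosts of that group, as found after the hosts were seen. Its eligible genes were not counted, so no share is given. Transcription factor hosts included HB4, with 2.76 in replicate 1 and 2.64 in replicate 2, GRF3, with 2.76 and 2.51, and WRKY18, a regulator of defence genes, with 2.36 and 2.25.

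Organelle RNA editing and pentatricopeptide genes, whose proteins bind and edit transcripts of mitochondria and chloroplasts, held 6 hosts among 44 (13.6%, 5.17 to 27.3), against 2.62% of all eligible genes with a symbol; this group, too, was chosen after its values were seen. The 44 are only the eligible genes caught by words in their names, not the whole family, so the share is not that of the family. All 6 of these hosts had the higher fold enrichment in replicate 2, as did 63.6% of all 539 members. CRR22 was enriched 1.44-fold in replicate 1 and 2.22-fold in replicate 2, OTP82 had 1.54 and 2.24, MEF18 had 1.64 and 2.36, and PPR2 had 1.35 and 2.22. MEF20 and MEF3 had 1.64 and 1.53 in replicate 1 and 2.18 and 1.96 in replicate 2. A deep peak was present in 12 of the 44 genes in replicate 2, shared or not, and in 6 in replicate 1, whereas over all eligible genes replicate 1 had more (6.18%) than replicate 2 (3.32%).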

How the data were processed

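DNA bound by DEK2-YFP was sequenced in 2 immunoprecipitates, and each has its own deposited peak list. Per the submitters' processing notes, Trimmomatic 0.38, Bowtie2 2.3.5, SAMtools 1.9, MACS2 2.2.7.1 and the TAIR10 build were used; their settings and whether the input served as control are not given in the sources used here. Each deposited peak has a score, a fold enrichment (ratio) and −log10 p and q values; the smallest −log10 q was 1.31 in replicate 1 and 1.30 in replicate 2. Read depth is not given; pileup and background were solved from the deposited fold (1 added to both) and Poisson p-value, and replicate 2 pileups came out whole within 0.02 in 100% of peaks and replicate 1 pileups in 14.8%. Replicate 1 had the higher modelled background, on a scale that may differ, and its list reached down to lower fold enrichments. A link between these was not tested.

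Peaks were placed with Python 3.11.15, numpy 2.4.6, pandas 2.3.3 and scipy 1.17.1 in a RefSeq gene table of TAIR10.1, without strand or exons; no coordinates of it are printed. The share of shared summits inside genes was lowest with no shift between summits and table. No sequence was used. No test between groups was possible, since the samples with peaks form one group, so shares have 95% exact binomial intervals and no p-values. The members and lists were chosen with earlier results of these data known. Of the 157 list members, 154 were matched on both symbol and locus, and 3 on the locus only. Genes were named by rule: the 10 best by the worse rank, the 5 widest peaks, the 5 longest hosts, up to 5 hosts with most deep peaks, the 5 farthest summits, 3 on each side of the threshold, list members, the 3 largest and smallest summit gaps and the 3 best nested ones; genes in name-word groups and others so marked were chosen after their values were seen. Alternatives covered the overlap, −log10 q, distance, gene ends used and each list alone. The matching code was tested on simulated data.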

Additional observations from a re-analysis of the deposited data

How the results depend on the processing

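No paired analysis was possible because the peak lists belong to one group and no test between groups was made. Of 92 recomputed values, 61 stayed within 1.5 times (counts) or within a spread (others). This was the replicate or counting spread, except for the median summit gap of 78 bp. For that gap it was the standard deviation across members, 245 bp, which its alternatives could hardly leave. They ran from 58 to 85 bp, and their place among the 61 says little about stability. The 539 deep shared peaks in 516 hosts became 257 in 252 when 50% of both peaks had to overlap, 170 in 169 when each list had to reach a −log10 q of 5, 1095 in 1044 at 250 bp from gene ends and 244 in 231 at 1000 bp. Taken from one list alone they were 829 to 1613 in 757 to 1408 hosts. Their share of peaks, 4.99%, was 10.1% at 250 bp, 2.26% at 1000 bp, 4.29% when the replicate 2 summit had to be deep too, 5.60% when only the host's own ends counted (added after seeing the data) and 6.23 to 6.27% from one list alone. The median host length was 2961 bp with 50% of both peaks, 2780 bp at 250 bp, 3737 bp at 1000 bp, 3214 bp with both summits deep and 3028 to 3087 bp from one list alone. The central 40 to 60% of host length held 15.3% of summits at 250 bp and 43.9% at 1000 bp. The share of interior in that stretch was not computed at these distances, so the match seen at 500 bp is not shown for them. The median replicate 1 width was 439 bp with 50% of both peaks and 425 bp from replicate 1 alone. With that −log10 q of 5 in each list, the median fold enrichment was 2.15 in replicate 1 and 2.42 in replicate 2. Replicate 1 deep peaks were found again in 15.9% of cases with 50% of both peaks and in 19.2% at a −log10 q of 5. The cause of these changes was not tested. Read depth is not given, and a peak missing from either list is not shown to be absent there.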

Other observations

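Deep peaks called in replicate 2 without a match in replicate 1 included some of moderate strength. The best of the 237 lay in AT1G34160 (fold enrichment 2.90, width 250 bp), in PUP11, of the purine permease family (2.85, 207 bp), in AT1G65560 (2.82, 233 bp), in AT1G14040 (2.64, 208 bp) and in AT5G44230 (2.51, 273 bp). All 5 exceeded the median of 2.08 of the matching peaks of the 539 members in the same list, and the peak in AT1G14040 lay 2274 bp from its nearer gene end. They were narrow, each under the median width of 276 bp of those matching peaks.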
